A study of Mus musculus with 70 samples.

Results

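The cytosolic ribosomal protein genes were taken as every gene symbol of the deposited gene table that reads Rpl or Rps followed by a number and at most the letter a, x or l, together with Rplp0, Rplp1, Rplp2 and Rpsa. Pseudogene entries with the ending -ps were left out. The rule gave 82 of 34677 genes, 50 of them named for the large subunit and 32 for the small subunit, and it used no measured value. In the GENCODE annotation 80 of the 82 were protein coding, Rpl6l was a processed pseudogene and Rps4l was a transcribed processed pseudogene. All 82 passed the filter on low counts and were tested, although Rpl10l and Rpl39l had no more than 6 counts in any brain library and passed it through the stem cells.

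Messenger RNA was sequenced in 70 mouse libraries, all labelled C57BL/6. Of these, 57 came from 18 brain regions of male P56 adults and 9 from 4 brain regions of E14.5 embryos, which the study's methods give as C57BL/6NTac. The last 4 came from mouse embryonic stem cells (mESC) of 2 clones derived from C57BL/6 mice, B6-1 and B6-2, with 2 libraries each. A region had 2 to 4 libraries, except the embryonic forebrain with 1.

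The adult regions were 5 hypothalamic nuclei (ARH, the arcuate nucleus; DMH, dorsomedial; VMH, ventromedial; PVH, paraventricular; LHA, the lateral hypothalamic area), 3 hindbrain nuclei (PB, parabrachial; NTS, solitary tract; DVC, the dorsal vagal complex), 3 cortical areas (ACA, anterior cingulate; ENT, entorhinal; FRP, frontal pole), the nucleus accumbens (ACB), the ventral tegmental area (VTA) and 5 parts of the cerebellum (CBN, its deep nuclei; CENT2, central lobule II; CUL4-5, the culmen; FL, the flocculus; UVU, the uvula). The embryonic regions were F (forebrain), M (midbrain), H (hindbrain) and THy-PHy (the hypothalamic primordium). The labels name no engineered allele and no treatment of the animals. Brain tissue was punched from frozen sections, and each brain library pooled pieces of 3 or 4 mice, apart from 1 ACB library from 1 mouse. The mESC had been grown on fibroblast feeders and were moved to gelatin, with LIF and kinase inhibitors in the medium, before RNA was taken. Brain RNA and mESC RNA were extracted with different kits. The study prepared its samples in several batches, and the labels do not give the batch of a library. Stage, batch and, for mESC, extraction kit therefore cannot be told apart. The brain libraries of a stage were pooled from fewer animals than separate pools would need, so libraries of different regions shared mice or embryos, and the labels do not tie libraries to animals. The tests between regions and between brain stages treat the libraries as independent, and their p-values can then be too small or too large. Replicates within a brain region measured the spread between pools, and nothing in the labels says that the libraries of a clone came from separate cultures.

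The cytosolic ribosome translates nuclear messenger RNAs. Its small subunit reads the message, its large subunit forms the peptide bond, and each subunit holds ribosomal RNA and a set of ribosomal proteins that are needed in roughly equal numbers. Transcripts of these proteins are among the most abundant in growing cells. Many start within a run of pyrimidines (C and T) called a terminal oligopyrimidine tract, through which their translation is controlled by nutrient and mTOR signalling. A few members have paralogs, of which Rpl10l and Rpl39l are known from the male germ line, Rpl3l from heart and skeletal muscle and Rps27l as a p53 target.

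The start sites are shown for some of the members on which the results below turn, because the pyrimidine run is the best known sequence feature of the family. Each line gives the 15 bases before and the 15 bases from the first RefSeq start of the gene on GRCm38.p6, 5′ to 3′, with its longest run of C and T in capitals.
Rpl7a, chr2:26910792-26910821, plus strand: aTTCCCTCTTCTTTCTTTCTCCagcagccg
Rpl27, chr11:101442230-101442259, plus strand: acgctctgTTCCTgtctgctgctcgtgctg
Rps26, chr10:128626492-128626521, minus strand: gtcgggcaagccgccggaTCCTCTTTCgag
Rps21, chr2:180257364-180257393, plus strand: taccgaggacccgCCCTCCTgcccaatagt
Rplp0, chr5:115559452-115559481, plus strand: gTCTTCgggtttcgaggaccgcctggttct
Rpl39, chrX:37085208-37085237, minus strand: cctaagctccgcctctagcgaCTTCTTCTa
Rpl39l, chr16:10170213-10170242, plus strand: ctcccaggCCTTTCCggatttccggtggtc
Rps27l, chr9:66946071-66946100, plus strand: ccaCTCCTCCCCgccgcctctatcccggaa
Rpl10l, chr12:66284387-66284416, minus strand: tttggCCTCCattttgcggctggcggtggg
A run of at least 8 pyrimidines lay in 27 of the 72 starts of the 60 members that had one in the RefSeq table, which is 37.5%, against 12% of all 32851 starts. The median longest run was 6 bases in the members and 4 over all starts, and the longest of any member, 21 bases, was that of Rpl7a. RefSeq gave no start for the other 22 members. The search read the strand with the letters of the messenger RNA in this window, and a run is a description of the letters, not evidence of regulation.

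The coding sequences of Rpl39, the parent gene on chromosome X, and of its paralog Rpl39l on chromosome 16 are shown because the paralog was near 0 in brain and abundant in mESC. Both were 156 bases long in the GENCODE transcripts, and capitals mark the 23 bases at which they differ.
Rpl39: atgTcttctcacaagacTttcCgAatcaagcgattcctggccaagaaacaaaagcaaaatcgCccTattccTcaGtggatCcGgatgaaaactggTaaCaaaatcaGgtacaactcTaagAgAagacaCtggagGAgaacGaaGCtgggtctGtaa
Rpl39l: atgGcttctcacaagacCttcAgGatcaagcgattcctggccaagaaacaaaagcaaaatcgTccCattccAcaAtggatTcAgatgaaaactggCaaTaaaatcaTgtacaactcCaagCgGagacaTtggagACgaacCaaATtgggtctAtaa
They were 85.3% identical. Rpl10 and Rpl10l, both with 645 coding bases, were 84.8% identical and differed at 98. The aligner of the study assigned reads by stretches of 31 bases. Of the 31-base stretches of the Rpl39l transcripts 1.0% also occurred in Rpl39, for Rps4l and Rps4x the share was 0.9%, and Rpl10l, Rps27l and Rpl3l shared 0 with their parents. Reads of these paralogs could therefore be told from those of the parents.

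Processed copies of ribosomal protein genes are scattered through the genome. Over the 82 members a median of 74.2% of a gene's 31-base stretches occurred in no other annotated gene, and 39 members reached at least 75%. Under 25% of the stretches were unique in 6 members, namely Rpl36 with 5.9%, Rpl35 with 11.2%, Rpl6l with 15.6%, Rpl23a with 17%, Rpl17 with 20.8% and Rplp1 with 24.9%. The levels of these 6 are uncertain, since the estimate divides shared reads between copies. Rpl6l, which shared 72.2% of its stretches with Rpl6, was at 0 counts in 24 of 57 adult and 3 of 9 embryo libraries and reached 348 counts in another embryo library.

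Total estimated counts per library ran from 13409041 to 20647884 in adult, 9074581 to 22229582 in embryo and 12985081 to 18501667 in mESC libraries. The labelled tissues carried their markers. The summed TPM (transcript abundance scaled by length and library) of 7 neuronal genes was 3240 to 7930 in adult, 816 to 2320 in embryo and 143 to 160 in mESC libraries, where Rbfox3, Snap25, Syt1 and Syp were each under 1 TPM. The 6 pluripotency genes summed to 4640 to 4990 TPM in mESC libraries and to at most 23.3 in brain, and 6 feeder fibroblast genes summed to 23.4 to 44.5 TPM in mESC, with Pdgfrb and Lum under 1. A pair of libraries stood apart by mitochondrially encoded transcripts. These took 39.6% of the TPM in VTA 1 and 22.6% in H 1, against a median of 7.71% in adult and 6.1% in embryo libraries. VTA 1 was also the lowest adult library for 73 of the 82 members.

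Levels of single members spanned more than 3 orders of magnitude. Of the 82 members, 76 had a mean above 100 TPM over the 24 groups and 15 had a mean above 1000 TPM, with a median of 775.4 TPM. The highest means were those of Rps24 (1942 TPM), Rps29 (1658 TPM), Rpl41 (1625 TPM), Rplp1 (1521 TPM) and Rpl13a (1418 TPM), all constituents of the standard ribosome. The lowest were those of the paralogs or pseudogenes Rpl3l (0.533 TPM), Rpl6l (5.034 TPM), Rpl10l (13.25 TPM), Rpl39l (16.44 TPM) and Rps4l (99.15 TPM).

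Summed over the 82 genes, ribosomal protein transcripts made up 1.68% to 6.46% of the TPM in adult libraries (median 4.3%), 5.82% to 11.9% in embryo libraries (median 7.59%) and 15.0% to 16.9% in mESC libraries (median 16.0%). Without VTA 1 the lowest adult library was at 3.36%. The mESC libraries did not overlap with either brain stage, while adult and embryo ranges overlapped between 5.82% and 6.46%. The sum over members is given without a test. As a share of estimated counts, which favours long transcripts, the medians were 1.18%, 2.12% and 5.63% in adult, embryo and mESC. With mitochondrially encoded transcripts left out they were 4.7%, 8.09% and 16.7% of TPM.

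**Figure D1:**
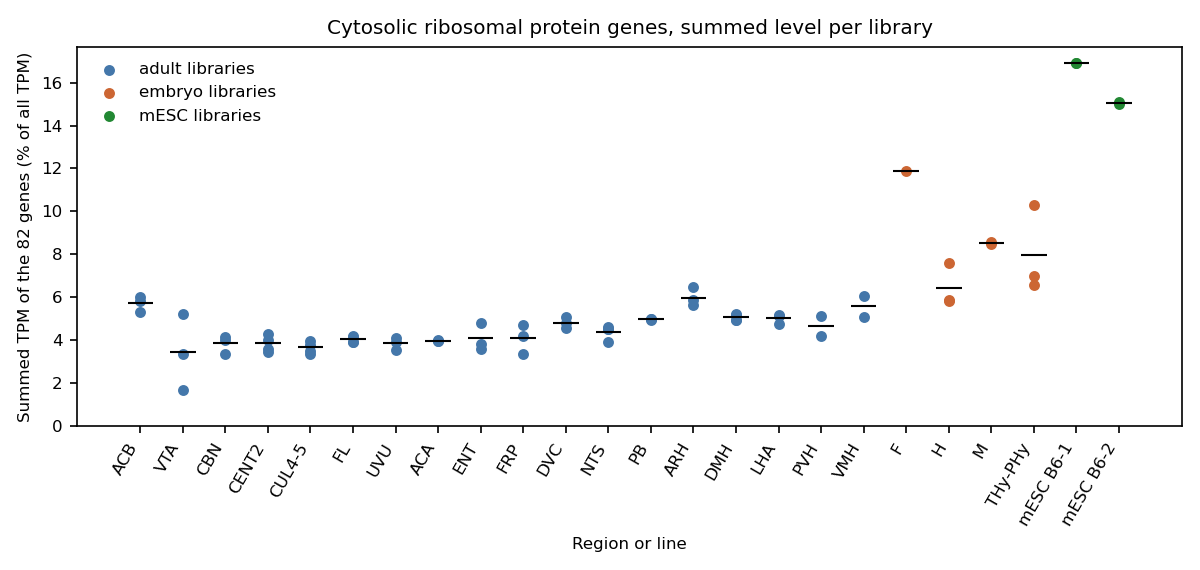
Summed TPM of the 82 ribosomal protein genes as a percent of all TPM (vertical axis, from 0) in each library (points, coloured by stage) of the 24 regions or lines (horizontal axis), with the group mean as a bar. The 4 mESC libraries sit between 15.0% and 16.9%, F at 11.9%, and VTA 1 at 1.68%.

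In the adult brain the group means were highest in ARH, at 5.98% ± 0.428 (SD, n = 3), ACB, at 5.73% ± 0.362 (SD, n = 3), and VMH, at 5.57% ± 0.716 (SD, n = 2). These 3 neighbours in the order did not differ beyond their spread. The means of the 5 cerebellar regions lay between 3.66% and 4.04%. VTA had 3.43% ± 1.78 (SD, n = 3), from libraries at 1.68%, 3.38% and 5.24%, and 4.31% ± 1.32 (SD, n = 2) without VTA 1. In the embryo F had 11.9% in its 1 library, M 8.53% ± 0.0478 (SD, n = 2), THy-PHy 7.96% ± 2.06 (SD, n = 3) and H 6.43% ± 1.01 (SD, n = 3). The THy-PHy libraries were at 10.3%, 6.57% and 6.98%, with mitochondrially encoded shares of 2.84%, 8.37% and 9.68% in the same order. F and both M libraries, which had high ribosomal protein levels, also had low mitochondrially encoded shares of 2.69%, 3.15% and 4.36%. The part of RNA composition in these differences was not tested. The B6-1 libraries were both at 16.9% and the B6-2 libraries at 15.0% and 15.1%. The ratio of large to small subunit TPM had a median of 1.34 in adult, 1.26 in embryo and 1.17 in mESC libraries.

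Embryo and adult were compared as the mean of the 4 embryonic regions against the mean of the 18 adult regions, with edgeR's quasi-likelihood test over 19980 genes and Benjamini-Hochberg adjustment, called at an adjusted p under 0.05. Of the 82 members, 73 were higher and 1 lower in the embryo, where 37.6% of all genes tested were higher and 36.7% lower. The members' median log2 fold change was 0.92, against 0.00 over all genes, and 35 were more than 2-fold higher. The share of all genes above 2-fold was not computed, here or for the later counts with that rule. Below, the value after ± is the standard error for a log2 fold change and the SD over libraries for a TPM. Among small subunit members 31 of 32 were higher, and among large subunit members 42 of 50. Every embryo library lay above every adult library for 15 members, against 5.75% of the 19351 genes compared in TPM, and for 21 members without H 1. Bulk tissue cannot separate more ribosomal protein messages per cell from a different mixture of cells. Beside these values, 6 genes of dividing cells summed to 35.4 to 98.9 TPM in adult and 297 to 1640 TPM in embryo libraries, and 5 red cell genes to 406 to 6890 and 3690 to 9800 TPM. The adult and embryo libraries did not overlap for 6 oligodendrocyte genes (640 to 18300 and 19.6 to 58.5 TPM), 5 astrocyte genes (318 to 1220 and 125 to 298 TPM) and 6 progenitor genes (76.3 to 837 and 847 to 3290 TPM), nor for the neuronal genes given above. The part of these cell types was not tested.

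The largest rise was that of Rplp0, which forms the base of the stalk that recruits elongation factors to the large subunit. Its TPM ran from 84.62 to 440.9 in adult libraries (median 360.7) and was 2105 in F, 1723 and 1636 in M, 648.7, 1002 and 1566 in H and 1714, 1203 and 1203 in THy-PHy. All embryo libraries were above all adult ones, with H 1, the library rich in mitochondrial transcripts, the lowest of them. The log2 fold change was 2.03 ± 0.051 (SE; edgeR adjusted p = 7.28e-38).

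Rps26, a small subunit protein at the messenger RNA exit, came next. Its TPM was 279.9 to 726.4 in adult libraries (median 476.2) and 1354 to 1853 in embryo libraries (median 1547), with no overlap, and its log2 fold change was 1.76 ± 0.049 (SE; edgeR adjusted p = 1.07e-35). The other named rises were Rps27l (log2 fold change 1.48), the large subunit protein gene Rpl7a (1.40) and Rpl27 (1.35), also of the large subunit. For these 3 the lowest embryo library did not clear the highest adult library. Rpl7a, for example, was at 163.4 to 747.2 TPM in adult and 691.1 to 1974 TPM in embryo libraries. Rpl27 was at 79.64 to 234.7 TPM in adult (median 130.7) and 191.1 to 1130 TPM in embryo libraries (median 330.8). Its highest values were in VTA 1 and H 1, the libraries rich in mitochondrial transcripts.

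The partners of Rplp0 on the stalk did not move alike. Rplp2 was at 112.5 to 883.7 TPM in adult (median 531.9) and 438.8 to 1710 TPM in embryo libraries (median 967.1), and rose by 0.94 ± 0.077 on the log2 scale. Rplp1 was at 188 to 2226 TPM (median 1288) and 496.7 to 2220 TPM (median 1248), with a log2 fold change of 0.06 ± 0.099 (edgeR adjusted p = 0.656). The adult and embryo ranges of Rplp1 covered each other almost wholly, but this is also among the members with few unique stretches.

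The other genes not called were Rps21, Rpl3, Rpl9, Rpl19, Rpl6l, Rpl10l and Rpl39l. Rps21, of the small subunit, had 236.5 to 1763 TPM in adult (median 1046) and 514.7 to 1541 TPM in embryo libraries (median 917.4), and Rpl3, close to the peptidyl transferase centre, had 220.5 to 1135 and 438.5 to 1231 TPM. Rpl3l was the 1 member lower in the embryo. It held 255 counts over 57 adult libraries and 5 over 9 embryo libraries, at 0 in 5 of these, so the direction rests on few reads (fitted log2 fold change −3.11 ± 0.53; edgeR adjusted p = 7.81e-07), and the call was lost without ENT replicate 3.

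Members with further known roles rose as well. Rpsa, also called the laminin receptor precursor, was at 187.8 to 939.2 TPM in adult and 684.5 to 1954 TPM in embryo libraries, a log2 fold change of 1.18 ± 0.043. Rpl5 and Rpl11, which travel with the 5S ribosomal RNA and bind the p53 regulator Mdm2, rose by 1.29 ± 0.05 and 0.90 ± 0.055 on the log2 scale. Rps19, the gene most often mutated in Diamond-Blackfan anaemia, rose by 0.90 ± 0.10. Rps6, the substrate of the S6 kinases, rose by 0.71 ± 0.10, Rps25, which serves some internal ribosome entry sites, by 0.65 ± 0.05, and Rpl38, needed for translation of Hox messages in the mouse embryo, by 0.39 ± 0.074. The medians of Rpl38 were 987.7 TPM in adult and 1275 TPM in embryo libraries.

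Matched regions gave the same main direction with fewer calls. THy-PHy against the 5 adult hypothalamic nuclei had 64 members higher, 4 lower and 14 not called, where 33.9% of all genes were higher and 33.6% lower. The 4 lower were Rpl3 (log2 fold change −0.36), Rpl3l (−2.02), Rplp1 (−0.40) and Rps21 (−0.39), named after their values were seen. H against PB, NTS and DVC had 49 higher, 8 lower and 25 not called, where 36.6% of all genes were higher and 34.2% lower. Rpl3, Rpl3l, Rplp1 and Rps21 were also among these 8. The 49 include Rpl39l, which had few counts in brain and passed the filter only through the stem cells. The median log2 fold change of the members was 0.69 in the first and 0.45 in the second comparison. Rplp0 led among the abundant members of the hypothalamic comparison, at 1.93 ± 0.09. In the hindbrain comparison Rps26 led among them, at 1.77 ± 0.09, and Rplp0 was at 1.56 ± 0.096. Both comparisons use samples of the whole stage comparison and are not independent of it.

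In mESC against embryo, 81 of 82 members were higher and 0 were lower (38.7% and 38.9% of all genes tested), with a median log2 fold change of 1.34 and 68 members above 2-fold. By edgeR at an unadjusted p under 0.05 the count of lower members was also 0. Every mESC library lay above every embryo library for 62 members, against 21.2% of the genes compared. In mESC against adult, 81 of 82 were higher and 0 lower (42.2% and 41.8% of all genes tested; 0 lower at an unadjusted p under 0.05), with a median of 2.19 and 81 above 2-fold. Every mESC library lay above every adult library for 80 members, against 20.8% of the genes compared, and the exceptions were Rpl3l and Rpl6l. Rpl6l was not called in either comparison. The counts of higher members and of members without overlap include Rpl10l and Rpl39l in both comparisons. Both passed the filter only through the stem cells, so their direction was fixed by it. The 6 genes of dividing cells summed to 1850 to 1940 TPM in mESC libraries, beside at most 1640 in embryo and 98.9 in adult libraries, and their part was not tested.

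**Figure D2:**
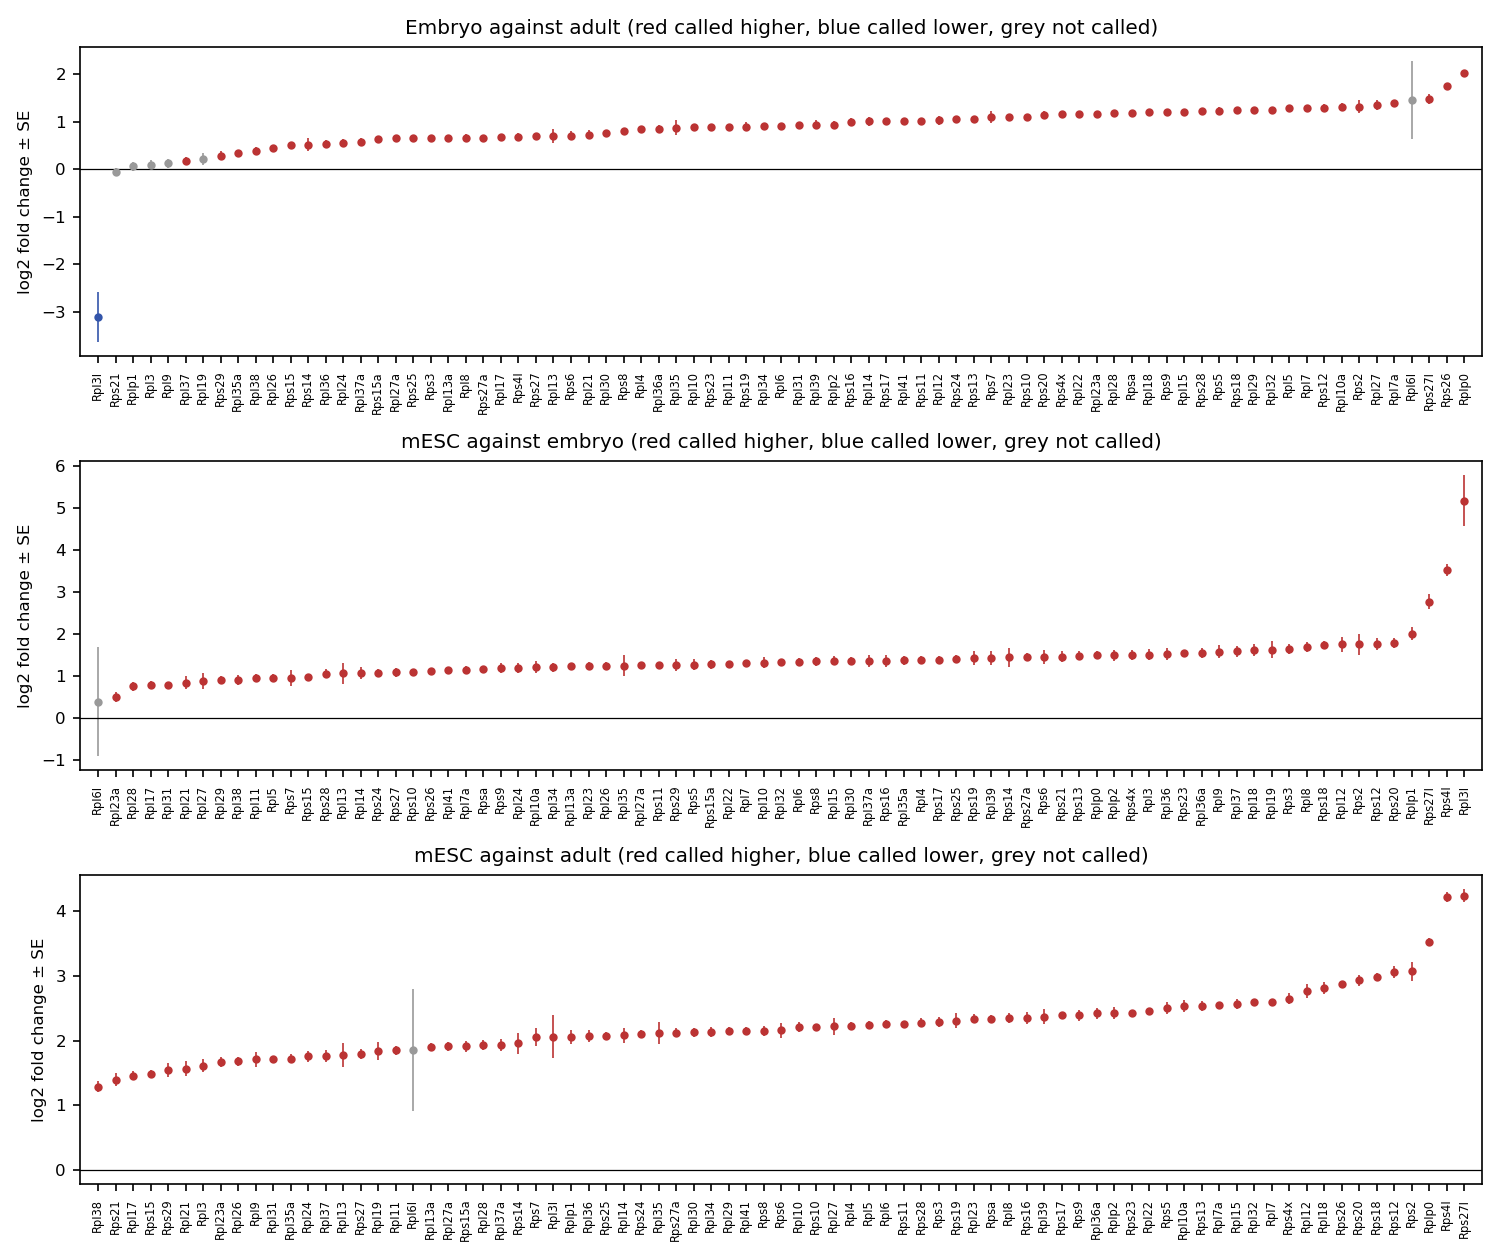
Log2 fold change with its standard error (vertical axis) of 79 ribosomal protein genes (horizontal axis, ordered within each panel) between stages, from edgeR. Rpl10l and Rpl39l are left out because their brain counts were near 0, and 1 further member is not shown. In the top panel Rplp0 is at 2.03 and Rpl3l at −3.11, and in the lower panels every plotted point is above 0, with Rpl6l in grey as not called.

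Rplp0 again stood high, at 3301, 3282, 3174 and 3213 TPM in B6-1 1, B6-1 2, B6-2 1 and B6-2 2, with a log2 fold change of 3.52 ± 0.058 against adult. Rplp1, which did not differ between embryo and adult, was at 4279, 4351, 3685 and 3795 TPM in the same order, above every brain library, and rose by 2.01 ± 0.16 against embryo. Rps21 was at 2503, 2470, 2028 and 1847 TPM and rose by 1.46 ± 0.13 against embryo. Both genes were higher in every mESC library than in any brain library, while their adult and embryo ranges overlapped.

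The named role members moved in the same direction. Against adult, the log2 fold changes were 2.34 ± 0.051 for Rpsa, 2.43 ± 0.088 for Rplp2, 2.24 ± 0.06 for Rpl5, 1.85 ± 0.066 for Rpl11, 2.31 ± 0.12 for Rps19, 2.16 ± 0.12 for Rps6, 2.07 ± 0.057 for Rps25 and 1.29 ± 0.089 for Rpl38. Rpl38, with 2080, 2060, 1790 and 1763 TPM in mESC libraries, had the smallest of all 82 log2 fold changes against adult. The most abundant member, Rps24, had 980.9 to 1858 TPM in adult, 2637 to 3324 TPM in embryo and 4559, 4597, 4462 and 4785 TPM in mESC libraries, so that the 3 stages formed separate ranges.

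The paralogs showed the largest differences between brain and mESC. Rpl10l, on chromosome 12, had 11 counts in all over 57 adult libraries, where 54 were at 0, and 1 count over 9 embryo libraries. In the 4 mESC libraries it had 6527 counts, at 176.0, 164.9, 147.3 and 147.0 TPM. Rpl39l, on chromosome 16, had 38 counts over the adult and 17 over the embryo libraries, with no brain library above 1.534 TPM, and 3733 counts in mESC, at 212.2, 216.8, 164.6 and 185.6 TPM. No fold is given for these genes, because it would depend on how counts near 0 are treated. Their parents were present in every library. Rpl10 was at 123.1 to 1172 TPM in adult, 474.1 to 1544 in embryo and 1831 to 2309 in mESC libraries, and Rpl39 at 21.3 to 192.8, 97.52 to 430.6 and 451.2 to 616.3 TPM. The Rpl39 estimate has a limit of its own, since the pseudogene entry Rpl39-ps exceeded it in each stage, with mean TPM of 211 against 130 in adult, 466 against 276 in embryo and 1050 against 528 in mESC.

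Rps27l was expressed in brain but rose further. It had 15.28 to 69.37 TPM in adult (median 44.07), 52.87 to 219.0 in embryo (median 94.24) and 590.3, 660.1, 590.7 and 502.8 in mESC libraries, with log2 fold changes of 1.48 ± 0.099 between embryo and adult and 2.77 ± 0.17 between mESC and embryo. Its parent Rps27 changed by 0.70 ± 0.067 and 1.09 ± 0.11 in the same comparisons. Rps4l, the transcribed pseudogene on chromosome 6, had 10.68 to 91.58 TPM in adult (median 46.23), 49.11 to 100.4 in embryo (median 73.28) and 607.0, 628.1, 616.2 and 649.0 in mESC libraries. Its log2 fold change between mESC and embryo was 3.53 ± 0.14 (edgeR adjusted p = 5.6e-29), beside 1.49 ± 0.12 for Rps4x. Rpl3l stayed low in mESC, at 1.055, 0.997, 3.036 and 1.801 TPM, while Rpl3 was at 1684, 1766, 1420 and 1416 TPM. Whether the change of a paralog differed from that of its parent was not tested.

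**Figure D3:**
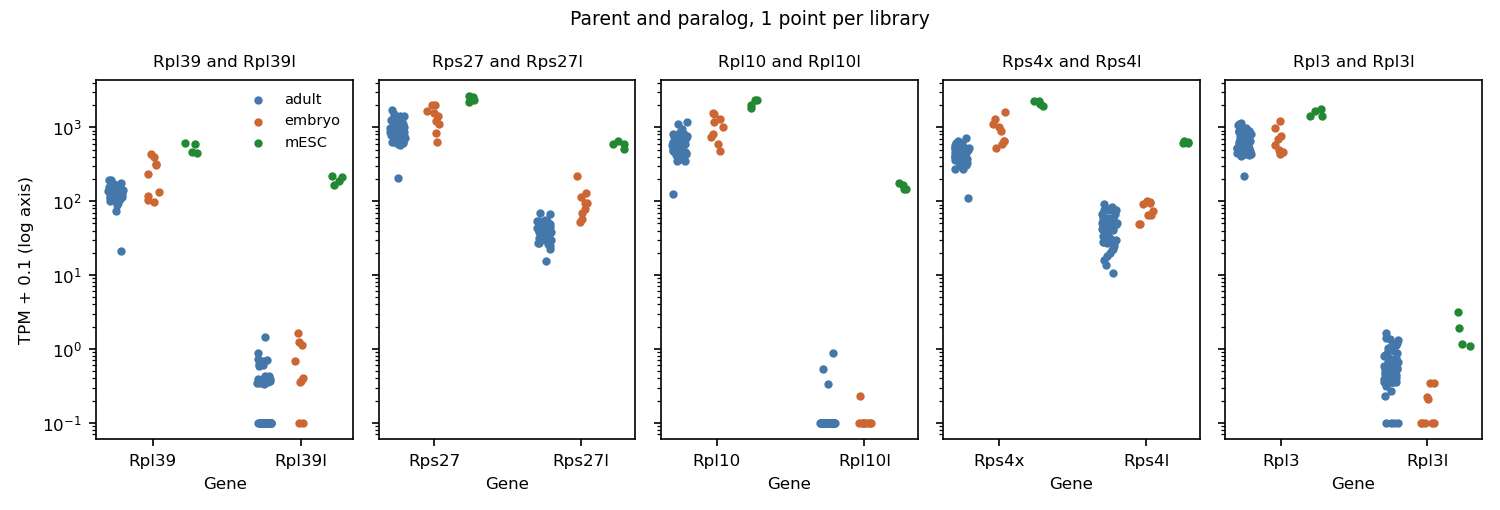
TPM plus 0.1 on a log axis (vertical) in each library (points, coloured by stage) for 5 parent genes and their paralogs (horizontal). The points of Rpl10l and Rpl39l lie under 2 TPM in all brain libraries and between 147.0 and 216.8 TPM in the mESC libraries.

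To ask which members moved against the rest, counts were scaled to the summed counts of the 82 members in each library in place of the usual scaling over all genes. On this scale the median log2 fold change of the members was 0.02 between embryo and adult, while that of all genes was −0.83, and 32 members were higher and 29 lower (14.0% and 62.0% of all genes tested). Rplp0 rose by 1.13 ± 0.044, Rps26 by 0.86 ± 0.056, Rps27l by 0.55 ± 0.091, Rpl7a by 0.50 ± 0.052 and Rpl27 by 0.42 ± 0.098. Rplp0 thereby went from 0.801% of the summed member TPM in adult to 1.78% in embryo and 2.04% in mESC. Lower on this scale were Rpl3l (−3.70), Rps21 (−0.97 ± 0.058), Rplp1 (−0.85 ± 0.079), Rpl3 (−0.81 ± 0.064) and Rpl9 (−0.79 ± 0.078). Rps21 went from 2.38% of the member TPM in adult to 1.23% in embryo and 1.38% in mESC, and Rplp1 from 2.77% to 1.56% and back to 2.52%.

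Between mESC and embryo, 26 members were higher and 18 lower relative to the pool (15.6% and 63.2% of all genes tested). The 26 include Rpl10l and Rpl39l, which passed the filter only through the stem cells. Besides Rpl10l, Rpl39l and Rpl3l, the named rises were Rps4l (2.22 ± 0.12) and Rps27l (1.48 ± 0.15). The named falls were Rpl23a (−0.81 ± 0.13), Rpl28 (−0.56 ± 0.12), Rpl31 (−0.53 ± 0.056) and Rpl17 (−0.52 ± 0.093), all of the large subunit. Rpl23a and Rpl17 are among the 6 members with few unique stretches. Rpl31, by contrast, held 2.25% of the member TPM in adult, 2.29% in embryo and 1.61% in mESC.

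Between mESC and adult, 28 members were higher and 25 lower relative to the pool (13.3% and 72.0% of all genes tested). The 28 also include Rpl10l and Rpl39l. Rps27l rose by 2.03 ± 0.10, Rps4l by 2.01 ± 0.078 and Rplp0 by 1.31 ± 0.057. Rpl38 (−0.92 ± 0.073), Rps21 (−0.81 ± 0.073), Rpl17 (−0.76 ± 0.082), Rps15 (−0.72 ± 0.057) and Rps29 (−0.66 ± 0.085) were lower. The share of Rpl38 in the member TPM was 2.23% in adult, 1.62% in embryo and 1.20% in mESC. Small subunit members were called higher in 15 of 32 and lower in 6, large subunit members higher in 13 of 50 and lower in 19. A member that is lower on this scale was still more abundant in mESC on the scale of all genes. The 3 pool comparisons share their samples pairwise.

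**Figure D4:**
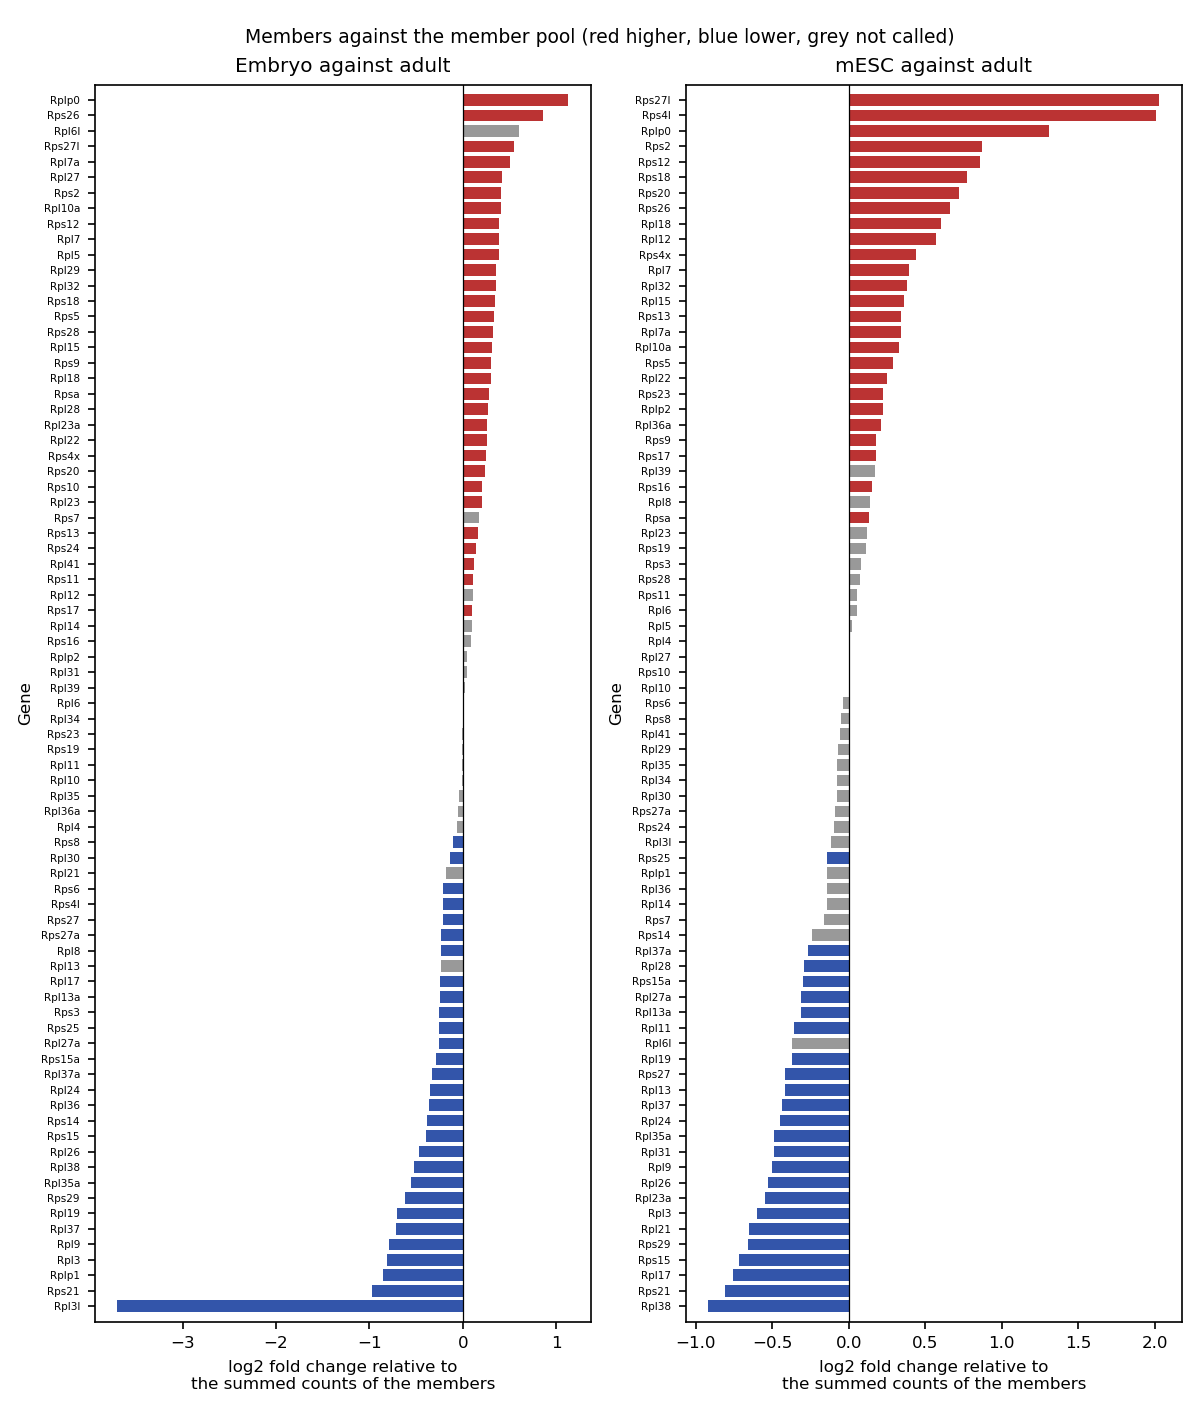
Log2 fold change relative to the summed counts of the members (horizontal axis) for 79 ribosomal protein genes (vertical axis) between embryo and adult (left) and mESC and adult (right), with Rpl10l, Rpl39l and 1 further member left out. Bars are red where called higher, blue where called lower and grey otherwise. Rplp0 leads the left panel at 1.13, and Rps27l and Rps4l lead the right panel at 2.03 and 2.01.

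Among the 18 adult regions 71 of the 82 members differed, where 80.9% of all genes tested did. The 71 include Rpl10l, which had 11 counts over the adult libraries and passed the filter only through the stem cells. The regions shared mice and the test did not account for this, so its p-values can be too small or too large. Rpsa, Rps23 and Rps4l had the largest F values. Rpsa ran from 413 ± 32.8 TPM in CUL4-5 (SD, n = 4) to 895.4 ± 60.83 TPM in ACB (SD, n = 3; edgeR adjusted p over regions = 2.05e-18). Rps23, at the decoding site of the small subunit, ran from 470.5 ± 203.3 TPM in VTA and 489 ± 36.48 in FL to 963.7 ± 24.49 TPM in ACB (edgeR adjusted p = 2.38e-17). Rps4l ran from 17.92 ± 1.82 TPM in ACA to 85.22 ± 5.709 in ARH (edgeR adjusted p = 9.08e-17), with VMH at 75.73 ± 0.8691 and PB at 72.44 ± 4.875 next to it. The mean was highest in ARH for 48 members, in ACB for 20 and in VMH for 8. It was lowest in VTA for 44, where VTA 1 weighs on the mean, in CUL4-5 for 15 and in ACA for 10.

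**Figure D5:**
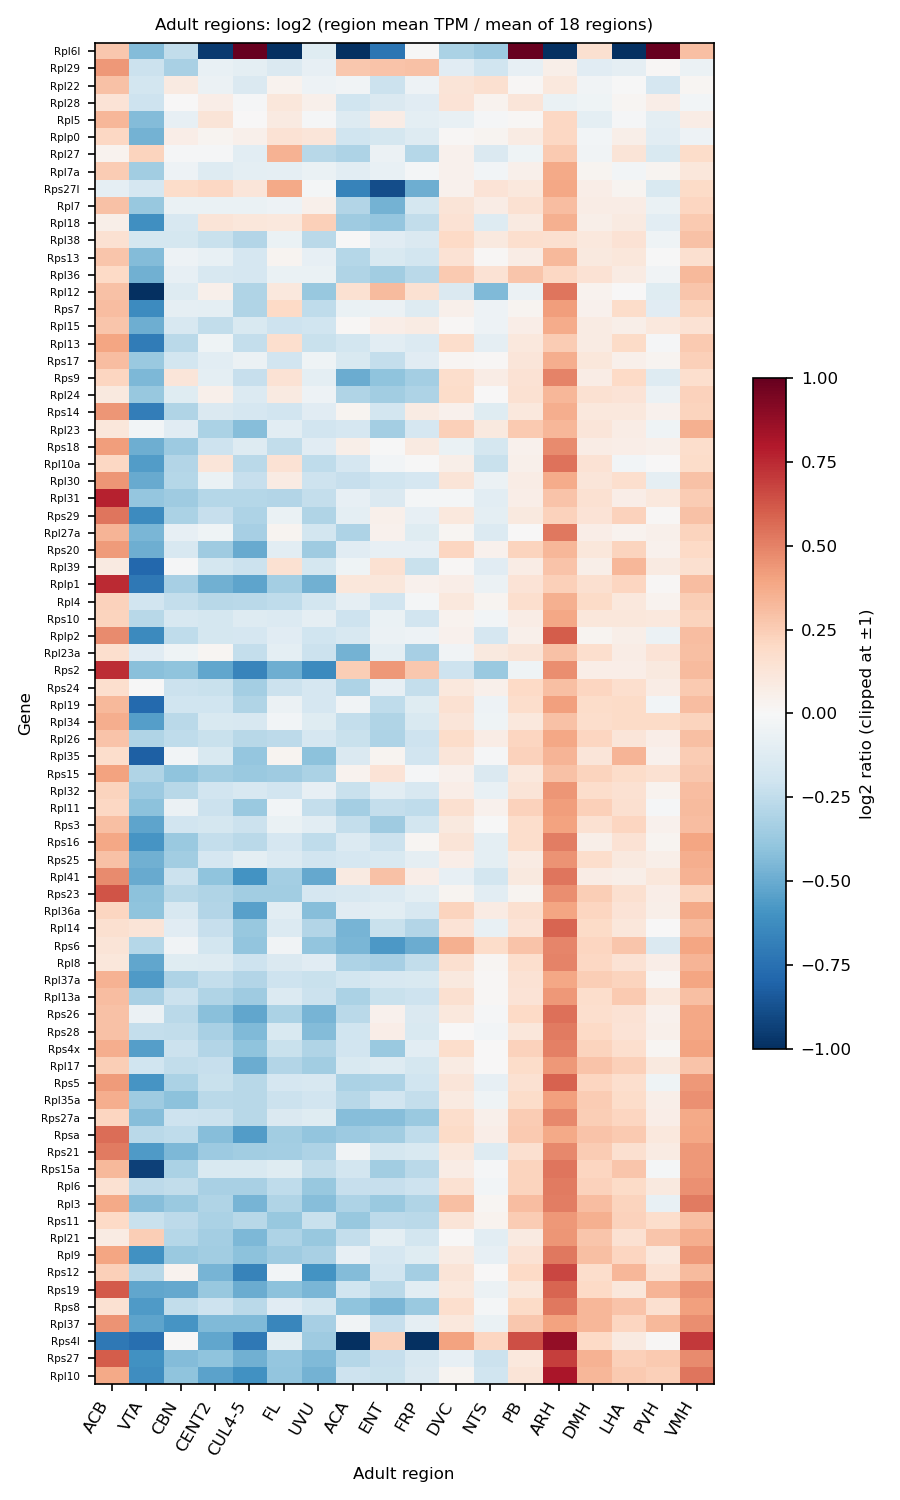
Log2 ratio of the region mean TPM to the mean over the 18 adult regions (colour, clipped at 1 in either direction) for 78 of the 79 members with at least 1 TPM in every region mean (vertical axis, ordered by their mean over the hypothalamic nuclei) in each adult region (horizontal axis). ARH, VMH and ACB are mostly red and the cerebellar regions and VTA mostly blue, while Rps4l near the bottom is blue in ACA and FRP.

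The 5 hypothalamic nuclei had 58 members higher and 3 lower than the 13 other adult regions, with 21 not called (26.9% and 24.3% of all genes tested), and the libraries on both sides shared mice. The differences were small, with a median log2 fold change of 0.23 and none over 2-fold. Rps4l (0.60 ± 0.068), Rpl10 (0.59 ± 0.06), a late joining protein of the large subunit, and Rps27 (0.53 ± 0.056) led. Rpl10 was at 1049 ± 158 TPM in ARH (SD, n = 3) and 867.2 ± 115.6 in VMH (SD, n = 2), against 392.4 ± 30.59 in CUL4-5 (SD, n = 4). Rps27 was at 1483 ± 205.1 TPM in ARH, 1399 ± 105.6 in ACB and 658.2 ± 56.21 in CUL4-5. The 3 lower were Rpl22 (−0.25 ± 0.04), Rpl5 (−0.21 ± 0.047) and Rpl29 (−0.15 ± 0.048), named after their values were seen. Without VTA 1 the counts were 53 higher and 4 lower. The summed TPM of the 7 neuronal genes was 3390 to 5020 in the hypothalamus and 3240 to 7930 in the other adult regions, that of 5 microglial genes 78.5 to 111 and 25.1 to 145, and their part was not tested.

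The 5 cerebellar regions had 70 members lower and 2 higher than the other adult regions (31.5% and 32.9% of all genes tested), with a median log2 fold change of −0.34, and 46 lower by limma on TPM. These libraries shared mice as well. Among the named members, the log2 fold changes were −0.68 ± 0.059 for Rpl10, −0.64 ± 0.076 for Rplp1, −0.62 ± 0.044 for Rps26 and −0.60 ± 0.037 for Rpsa. The 2 higher were Rpl22 and Rpl5, both at 0.09 and with adjusted p of 0.0208 and 0.0476 by edgeR, named after their values were seen, and in many of the refits that left out 1 adult library only 1 was called. Rplp0, the member with the largest called rise between embryo and adult, was not called, at 0.02 ± 0.045. The 5 astrocyte genes summed to 645 to 1220 TPM in the cerebellum and to 318 to 767 elsewhere in the adult brain, and 6 progenitor genes, among them Vim and Sox2, to 170 to 837 and 76.3 to 342. The 5 microglial genes were at 25.1 to 78.4 TPM in the cerebellum (median 41.0) and 43.7 to 145 elsewhere (median 98.8), and the 6 oligodendrocyte genes at 1360 to 18300 (median 2480) and 640 to 15300 (median 4550). The part of these cell types was not tested. Hypothalamus and cerebellum are each part of the regions against which the other was compared.

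Among the 4 embryonic regions 71 members differed, where 51.4% of all genes tested did, and libraries of different regions shared embryos. The 71 include Rpl39l, which had 17 counts over the embryo libraries and passed the filter only through the stem cells. F had the highest mean for 73 of 82 members and H the lowest for 63. F is 1 library, and without it 40 members differed. Rps26 was an exception in its order, with 1853 TPM in F, 1588 ± 73.52 in THy-PHy (SD, n = 3), 1532 ± 122.9 in H (SD, n = 3) and 1366 ± 16.05 in M (SD, n = 2). Rplp0 had 2105 TPM in F, 1680 ± 61.5 in M, 1374 ± 295 in THy-PHy and 1072 ± 462.6 in H, where the H libraries alone spread from 648.7 to 1566 TPM.

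The mESC clones differed little. The sample numbers in their labels lie apart, those of B6-2 among the adult libraries and those of B6-1 after the embryo libraries. Clone and sample order cannot be told apart. Rpl23a was lower in B6-2, at 1023 and 1364 TPM against 1823 and 1911 TPM in B6-1, with a log2 fold change of −0.73 ± 0.18 (edgeR adjusted p = 0.0285), and 0 members were higher (0.726% and 0.365% of all genes tested were lower and higher). By edgeR at an unadjusted p under 0.05, 19 members were lower and 0 higher, where 10% of all genes tested passed, both directions together. Of the 82 members, 79 had a negative log2 fold change, with a median of −0.30. By DESeq2 2 members were lower, and by limma on TPM 0. Rpl23a is among the members with few unique stretches, and it was not called when the counts of the pseudogene entries were added to their parents. Without B6-1 1, B6-1 2 or B6-2 1, each in turn, 0 members were lower.

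The rest of the translation apparatus was read from lists of other ribosome components, translation factors, ribosome biogenesis factors and mitochondrial ribosomal proteins. Their counts stand beside 37.6% of all genes higher and 36.7% lower in embryo than in adult, 38.7% and 38.9% in mESC than in embryo, and 42.2% and 41.8% in mESC than in adult. Among 6 other ribosome components, 5 were higher and 1 lower in embryo than in adult, and all 6 were higher in mESC than in either. Rack1, the scaffold protein of the small subunit, had log2 fold changes of 1.61 ± 0.067 between embryo and adult and 1.66 ± 0.12 between mESC and embryo. Among 38 translation factors, 28 were higher (73.7%) and 7 lower (18.4%) in embryo than in adult, 32 and 3 in mESC than in embryo, and 34 and 3 in mESC than in adult. Pabpc1, the poly(A) binding protein, was higher by 2.03 ± 0.071 in embryo than in adult, and Eif4a1, an initiation helicase, by 1.61 ± 0.076. Eef1a2, the elongation factor form of mature neurons and muscle, had a log2 fold change of −4.01 ± 0.12 between embryo and adult and was under 1 TPM in every mESC library.

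Among 31 ribosome biogenesis factors, 25 were higher (80.6%) and 4 lower (12.9%) in embryo than in adult (median log2 fold change 0.60), and all 31 were higher in mESC than in embryo (median 2.04, above the members' median of 1.34). Ddx21, a nucleolar helicase, had 1.78 ± 0.028 and Npm1, a nucleolar chaperone, 1.58 ± 0.065 between embryo and adult, and Gnl3, the nucleolar protein nucleostemin, had 3.20 ± 0.083 between mESC and embryo. Of 78 mitochondrial ribosomal protein genes 16 were higher (20.5%) and 45 lower (57.7%) in the embryo than in the adult (median −0.18), with Mrps12 at −0.95 ± 0.08 and Mrpl48 at −0.87 ± 0.041. Against embryo, 64 of the 78 were higher and 4 lower in mESC (median 0.94), with Mrps18b at 2.69 ± 0.072 and Mrpl15 at 2.18 ± 0.054. In the hypothalamus, where 58 cytosolic members were higher, 8 mitochondrial ribosomal protein genes were higher (10.3%) and 33 lower (42.3%), where 26.9% of all genes were higher and 24.3% lower. Of the translation factors there, 10 were higher (26.3%) and 11 lower (28.9%), near the shares of all genes, with Eef1a1, which delivers aminoacyl-tRNA, at 0.50 ± 0.028. In the cerebellum 22 of 38 translation factors were lower (57.9%) and 10 higher (26.3%), where 31.5% of all genes were lower and 32.9% higher, with Eef1a1 at −0.71 ± 0.027.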

How the data were processed

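RNA from 70 mouse libraries (57 adult, 9 embryo, 4 mESC) was sequenced as single reads by the authors. They estimated counts per transcript with Kallisto on Ensembl GRCm38 cDNA, and these deposited estimated counts carry no scaling across libraries. The deposited TPM values were summed per gene by the authors. TPM is scaled within each library, so a rise of abundant genes lowers the share of the others.

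Here transcripts were matched to genes with GENCODE (98.8% of 109282 matched; 0.42% to 0.77% of counts per library fell on unmatched ones). The counts of a gene's transcripts were added up and rounded to whole numbers. The TPM of the 82 members differed from the deposited gene table in 0 members, within 1%. No column of per-sample values was left unused.

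edgeR 4.0.16 (R 4.3.3) was fitted to all libraries with 24 groups, TMM scaling and filterByExpr, which left 19980 genes. Its quasi-likelihood test gave p-values, adjusted by Benjamini-Hochberg over all genes tested and called at 0.05. Standard errors were derived from the log2 fold change and its F value, and are rough for genes with few counts. Alternatives used other scalings and filters, DESeq2 1.42.0, and limma 3.58.1 on log2(TPM + 0.5) or log2(TPM + 0.1). Each library was also left out in turn, with the negative binomial dispersions of the full fit kept and members called at the unadjusted p that the adjustment over all genes had set as limit. The scripts were checked on simulated data with known answers.

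Genes named were the 5 called members with the largest rises and falls per stage comparison on either scale, those with the 5 highest and 5 lowest means, paralogs and parents, stalk and role genes, the 3 with the largest F over adult regions, and up to 3 per list. Members and lists were chosen with earlier results of these data known. Replicate pairs differed by more than counting noise (chi-square per gene at least 2.59 over 74 pairs). Libraries with the same replicate number did not deviate together, which cannot show whether libraries were paired through shared mice. Coding sequences came from GENCODE and start sites from RefSeq (GRCm38.p6). Protein sequences were not used here. A named member and a list gene are not reported here.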

Additional observations from a re-analysis of the deposited data

Results flagged for a closer look

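Named members and the sum over all members were searched in the regions with 4 libraries, which were CENT2, CUL4-5, DMH, FL and NTS. In 135 sets of 4 values, 10 held a library that stood far from the other 3, where chance gives about 1 in 20 sets. The sets of a region came from the same libraries and were not independent, so the 10 cannot be weighed against that rate. Of the 10, 5 were in NTS. NTS 4 had a summed level of 3.9% of TPM, while the other NTS libraries had 4.53% to 4.61%, and it was low for Rpl38 (817 TPM, nearest library 1120) and Rps29 (1080 TPM, nearest 1390). Its mitochondrially encoded share was 12.4%, the highest of the 4. Rps23 was high in NTS 1 (633 TPM, nearest 571), and Rpl6l was at 10.5 TPM in NTS 2 and at 0 in the other 3. In the cerebellum, Rps27l was at 69.4 TPM in FL 2 against 48.5 to 49.8 in the other FL libraries, and Rplp1 at 1010 TPM in FL 3 against 994 to 995 in the others. Rpl39l was at 0 TPM in CENT2 3 and at 0.302 to 0.332 in the others, and at 0.307 TPM in CUL4-5 3 and at 0 in the others. Rpl3l was at 0.7 TPM in DMH 1, with the nearest library at 0.356.

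The difference between embryo and adult was itself compared between hypothalamus (THy-PHy against the 5 adult nuclei) and hindbrain (H against PB, NTS and DVC) by an interaction contrast in edgeR. It was called for 13 of 82 members and for 6084 of 19980 genes, which is a larger share than among the members. For 11 of the 13 the change was more positive in the hypothalamus. Of these, Rpl8, Rpl24, Rpl35 and Rpl36 had negative log2 fold changes in the hindbrain, where only Rpl36 was called (−0.39, edgeR adjusted p = 0.0283). The median difference was 0.20 over the members and −0.01 over all genes. The split of the 6084 genes by direction is not given here. Among the named members, Rplp0 rose by 1.93 and 1.56 (difference 0.37, adjusted p = 0.0449), Rpl5 by 1.46 and 1.1 (difference 0.36, adjusted p = 0.0342) and Rpl7a by 1.32 and 1.03 (difference 0.3, adjusted p = 0.0461). With counts scaled to the member pool the calls of these 3 were lost, with edgeR differences of 0.24 for Rplp0 (adjusted p = 0.144), 0.24 for Rpl5 (adjusted p = 0.339) and 0.19 for Rpl7a (adjusted p = 0.33), and 7 members were called. By edgeR at an unadjusted p under 0.05 on this scale, 20 members passed, against 32.1% of all genes tested. H holds H 1, the embryo library with 22.6% mitochondrially encoded transcripts, and its part was not tested.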

How the results depend on the processing

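The counts of members higher in embryo than in adult and higher in mESC than in embryo or adult stayed within 1.5 times of their values under every scaling, filter and tool tried, but only 35 passed when a change above 2-fold was also asked of embryo against adult. With that rule 0 passed in either direction for hypothalamus, cerebellum and the mESC clones, and relative to the pool 1 higher and 1 lower passed between embryo and adult, 5 and 0 between mESC and embryo, and 5 and 0 between mESC and adult. Both counts of 5 include Rpl10l and Rpl39l, which passed the filter only through the stem cells. Small counts moved most. Lower members were 4 in THy-PHy and 8 in H against matched adult regions, in place of 1. Lower members in the hypothalamus were 1 with library totals, 1 with limma at a pseudocount of 0.5 and 0 at 0.1, in place of 3. Higher members in the cerebellum were 1 with relative log expression factors and 1 with DESeq2, in place of 2, and lower members were 46 with either limma setting, in place of 70. Between the mESC clones 0 were lower with pseudogene counts added, 0 with either limma setting and 2 with DESeq2. The summed medians were 1.18%, 2.12% and 5.63% as shares of counts, and that of mESC was 17.2% of TPM with pseudogene entries added. Library totals moved the median of all genes by 0.17 (embryo against adult) and −0.14 (mESC against embryo) on the log2 scale. The cause of these moves was not tested.

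With the replicate number as a block, higher members in the cerebellum were 1 in place of 2. Same-numbered libraries of different groups had a median correlation of deviations of 0.0116 (669 pairs), with a range from −0.509 to 0.505. This median cannot show whether libraries were paired through shared mice.

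Leaving out each library in turn gave 72 to 74 higher and 0 to 2 lower members in embryo against adult (0 without ENT replicate 3, 2 without F), 81 higher in mESC against embryo, 81 to 82 in mESC against adult, 48 to 64 higher and 3 to 4 lower in the hypothalamus, 1 to 2 higher and 66 to 71 lower in the cerebellum, 0 to 2 lower between the clones (0 without either B6-1 library or without B6-2 1, 2 without H 1), 69 to 77 that differed among adult regions and 40 to 76 among embryonic regions (40 without F). Relative to the pool the ranges were 31 to 33 and 28 to 32 for embryo against adult, 19 to 28 and 15 to 21 for mESC against embryo, and 24 to 30 and 23 to 28 for mESC against adult. Of 7350 values of single named members under alternatives, 7341 kept their call, 5 lost it, 4 gained it and 0 turned direction. Without H 1, chosen after seeing the data, 21 members in place of 15 had every embryo library above every adult library.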

Other observations

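Entries of the gene table with a member's symbol and the ending -ps were left out of the members. They numbered 274 and named 59 of the members as parents. Their summed TPM had a median of 0.304% of all TPM in adult, 0.628% in embryo and 1.21% in mESC libraries, with ranges of 0.181% to 0.462%, 0.459% to 0.74% and 1.17% to 1.23%. The adult and embryo ranges overlapped only between 0.459% and 0.462%, and mESC lay above both. These entries were not tested as a group, and reads that they share with their parents cannot be told apart from transcripts of their own. Of these entries, Rpl39-ps was the only one with a stage mean above that of its parent in TPM.

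The mitochondrial ribosomal protein genes, encoded in the nucleus, summed to 0.209% to 0.574% of TPM in adult, 0.288% to 0.576% in embryo and 0.654% to 0.671% in mESC libraries. VTA 1 and H 1, the libraries with the highest mitochondrially encoded shares of their stages, held the lowest value of each, at 0.209% and 0.288%.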
